A study of Mus musculus with 16 samples.

Results

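The comparison described here sets ribosome-bound RNA of striatal astrocytes beside RNA of the whole striatum in 4 mice given clozapine N-oxide (CNO). Its members are 8 of the 16 libraries of the series, 4 immunoprecipitates (IP) and 4 inputs, chosen by the mouse codes C2, C3, C4 and C5 in the sample titles, with all genes measured. The mice were male C57BL/6J mice listed as wild-type, aged 63 days, and the tissue was taken 2 h after CNO at 1 mg/kg. The other 8 libraries are the IP and input of vehicle-injected mice V2 to V5 of the same strain, sex, age and time point, and they serve as the control for what CNO did to the ratio. Input is RNA of the cleared tissue lysate, and IP is RNA on ribosomes captured from astrocytes through a hemagglutinin tag, in both injection groups alike. CNO is a ligand used to act on designer receptors, but the labels do not name the receptor, its vector or promoter, or the tagged ribosomal protein. The titles hold 8 mouse codes although 4 mice are spoken of in the series description. A code was taken to be 1 animal here. Should codes share an animal, a p-value reflects technical spread.

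Astrocytes are the glial cells that clear glutamate and potassium from around synapses, hold the brain's glycogen, make cholesterol for other cells, and touch blood vessels and synapses with fine processes. In the striatum they lie among spiny projection neurons, the GABA neurons that make up most of that tissue, with a few kinds of interneuron, oligodendrocytes, microglia and vascular cells. A tag on a ribosomal protein in 1 cell type lets the messenger RNAs being translated there be pulled down, and their share in the IP relative to the input shows which messages are carried more by the tagged cells than by the tissue. The log2 ratio used below is the log2 level (in CPM, reads scaled to a fixed library size) in the IP minus that in the input of the same mouse, averaged over the 4 mice, with limma's standard error (SE). It is a share of RNA, and in bulk libraries fewer cells of a type and less RNA per cell cannot be told apart.

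The 3 defining astrocyte markers were higher in the IP of every CNO mouse. Aldh1l1, a folate enzyme (chromosome 6, 90486427 to 90600203, GRCm38), stood at 69.8, 84.6, 83.1 and 73.6 CPM in the inputs of C2, C3, C4 and C5 and at 617, 721, 619 and 580 CPM in their IPs. Slc1a3, the glutamate transporter GLAST (chromosome 15, 8634124 to 8710764), stood at 464, 436, 434 and 414 CPM in input and at 3011, 3261, 3061 and 2986 CPM in IP. Acsbg1, an acyl-CoA synthetase (chromosome 9, 54604877 to 54661870), stood at 133, 131, 140 and 127 CPM in input and at 1006, 1071, 996 and 966 CPM in IP. No IP value of these genes overlapped an input value, and the mice differed little. Such a lack of overlap with the IP higher was found for 5936 of all 15819 genes tested. The log2 ratios were 3.03 (SE 0.054, adjusted p = 3.06e-11 by limma) for Aldh1l1, 2.82 (SE 0.055, adjusted p = 4.24e-11) for Slc1a3 and 2.93 (SE 0.051, adjusted p = 3.06e-11) for Acsbg1, n = 4 mice. In vehicle mice the same ratios were 2.92, 2.78 and 2.82, and the difference between the injections did not pass the test for any of the 3 (adjusted p = 0.547, 0.828 and 0.417).

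**Figure D1:**
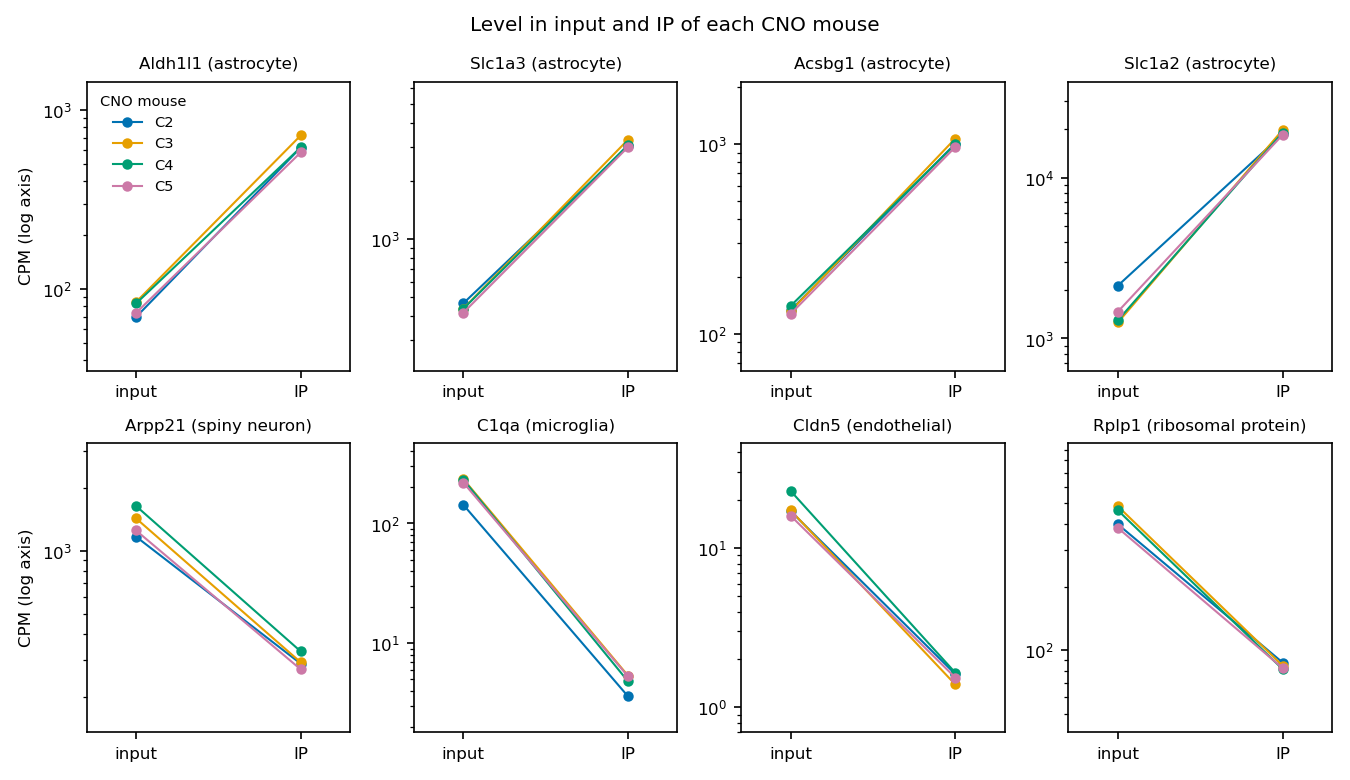
CPM on a log axis in the input and the IP of each CNO mouse, 1 line per mouse, for 4 astrocyte genes and 4 genes of other cell types or of ribosomal proteins. The lines of Aldh1l1, Slc1a3, Acsbg1 and Slc1a2 rise in all 4 mice and those of Arpp21, C1qa, Cldn5 and Rplp1 fall in all 4. The input of C2 starts higher for Slc1a2 and lower for C1qa than the other inputs.

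Input libraries of CNO mice held 32.8 to 40.1 M reads (M, mega) and their IPs 52.1 to 61.5 M. The top 10 genes held 3.23 to 3.68% of reads in the CNO inputs and 6.02 to 6.49% in the CNO IPs. Of 10433 genes with a mean of at least 10 CPM over the 8 libraries, 111 lay over 1.5-fold above all the other CNO inputs in the input of C2, against 54 in that of C5, 4 in that of C3 and 1 in that of C4. Among them were the astrocyte genes Atp1b2, at 58.3 CPM in the input of C2 against 21.8 to 24.0 CPM in the other 3, and Kcnj10, at 108.6 against 43.4 to 49.0 CPM. Slc1a2 was also uneven, by less, at 2130 CPM in the input of C2 against 1257 to 1468 CPM. The ratio of C2 is lower for such genes, so values without C2 are given beside some of them. Vehicle libraries had such spreads too, with 239 genes more than 1.5-fold below the rest in the IP of V3 and 198 above in the input of V5.

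Of 15819 genes tested in CNO mice, 6685 (42.3%) passed the threshold with the IP higher and 5874 (37.1%) with the IP lower, at a Benjamini-Hochberg adjusted p under 0.05. At least 2-fold, 2633 genes (16.6%) were higher and 2112 (13.4%) lower. Most genes thus passed the test of the mean ratio, and a count of list members called below is to be read against these shares. IP and input values did not overlap for 5936 genes with the IP higher and 5136 with the IP lower. A lack of overlap in a named gene is to be read against these counts. The middle of the distribution depends on the scaling: the median log2 ratio of all genes was 0.04 with the deposited scaling, 0.22 lower with upper quartile scaling and 0.31 lower with total reads. Higher calls made up 53.2% of all calls with the deposited scaling, 40% with upper quartile scaling and 35.2% with total reads. Both shifts were downward, so positive ratios smaller than these shifts have no fixed sign. The genes of large ratio described next kept their side under each of these scalings.

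**Figure D2:**
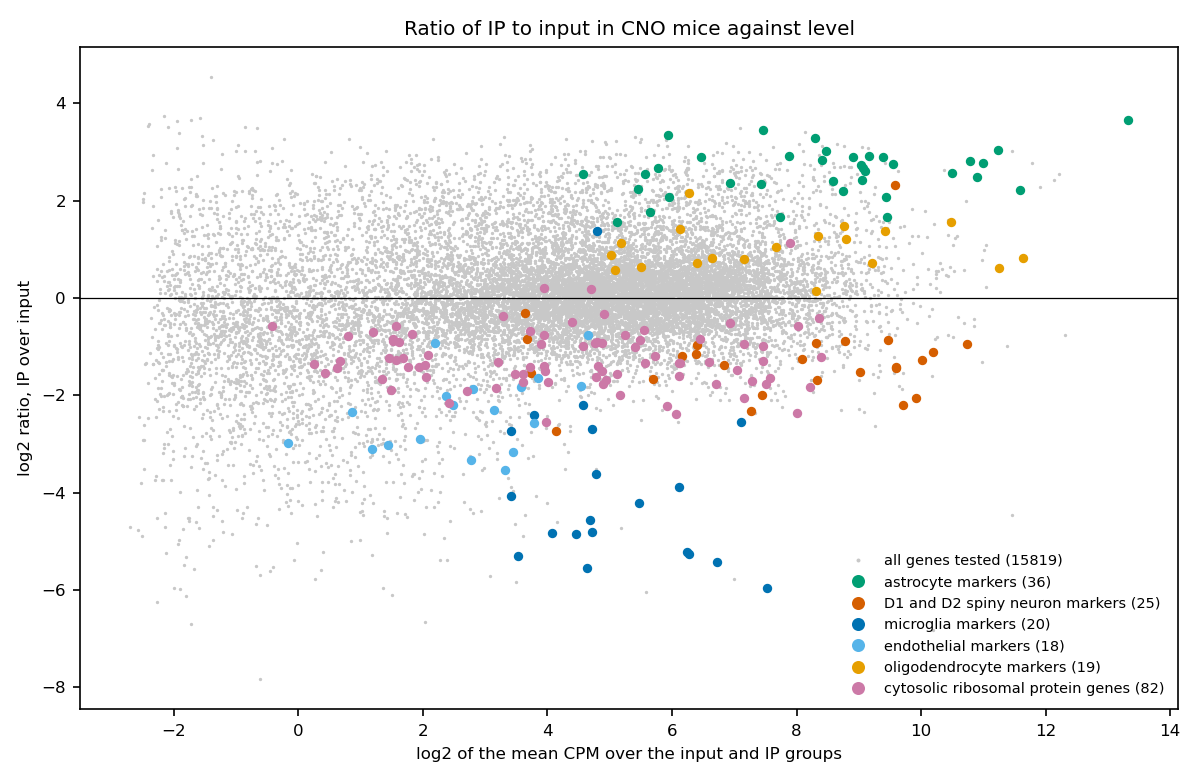
Log2 ratio of IP to input in CNO mice (vertical axis) against the log2 mean CPM of both groups (horizontal axis), 1 point per gene tested. The 36 astrocyte markers all lie above 0, between 1.55 and 3.66, the microglia and endothelial markers lie below 0 apart from 1 microglia marker, and 79 of the 82 ribosomal protein genes lie below 0.

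All 36 listed astrocyte markers passed the test with the IP higher, each over 2-fold, with a median log2 ratio of 2.64 against 0.04 over all genes. Their summed level was 7402 to 8658 CPM in the inputs and 54750 to 59904 CPM in the IPs. The median of the list was 2.47 in C2 and 2.64 to 2.73 in the other mice. Slc1a2, the glutamate transporter GLT-1 and the most abundant gene of the IP, went from the input levels given above to 18579, 19773, 19053 and 18433 CPM. Its log2 ratio of 3.66 (SE 0.13) was the highest among genes of at least 10 CPM, and was 3.83 without C2. Atp1b2, the beta-2 subunit of the sodium pump, had 322, 345, 307 and 302 CPM in IP and a ratio of 3.45 (SE 0.25), or 3.77 without C2. Kcnj10, the inward rectifier potassium channel Kir4.1, had 553, 611, 504 and 593 CPM in IP and a ratio of 3.28 (SE 0.24), or 3.60 without C2. None of the 3 genes had an IP value that overlapped an input value.

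The other genes among the 12 highest ratios were transcription factors, matrix proteins, proteins of the actin cytoskeleton and Mcc. Sox9, the factor that specifies astrocytes, had a log2 ratio of 3.35 (SE 0.19, 3.59 without C2), with 7.62 to 17.04 CPM in input and 104 to 118 CPM in IP. Rorb, a nuclear receptor also listed as a marker of cortical neurons, reached 3.42 (3.63 without C2). Tead1, the DNA-binding partner of YAP, reached 3.27 (3.60 without C2). Tenascin C (Tnc) had a ratio of 3.31 (SE 0.056), with 6.23 to 10.4 CPM in input and 63.3 to 101 CPM in IP. Thbs4 and Thbs1, thrombospondins that promote synapse formation, both had a ratio of 3.24. Flnc, a filamin that crosslinks actin, had 3.498, Palld (palladin), an actin-bundling protein, 3.27, and Mcc, a regulator of Wnt signalling, 3.26. Of these 12 genes, 11 had a ratio of at least 2.71 in vehicle mice as well. Thbs1 was the exception, at -0.30 in vehicle mice, and is described with the difference between the injections.

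Genes that carry out the known tasks of astrocytes were mostly higher in IP. Among 16 genes for potassium, water and gap junctions, 15 were higher and 1 lower, with a median log2 ratio of 2.20. The water channel Aqp4 went from 147 to 175 CPM in input to 1029 to 1306 CPM in IP, a ratio of 2.91, and the connexins Gja1 and Gjb2 had ratios of 2.90 and 2.90. Kcnk2, the leak channel TREK-1, was the lower member, at -1.30, falling from 103 to 137 CPM in input to 45.7 to 51.5 CPM in IP. Of 19 genes for glutamate and GABA, 12 were higher, 3 lower and 4 did not pass. The GABA transporter GAT-3 (Slc6a11) reached 2.92 (3.20 without C2) and the glutamine exporter Slc38a3 2.84. The vesicular GABA transporter Slc32a1 stood at -0.20. Its call was lost without C3, without C4 or without C5 (adjusted p = 0.136, 0.134 and 0.0966), and the count of lower genes rose to 7 under both other scalings.

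In most pairs of genes for related proteins the ratios differed within each mouse. Such a pair puts a gene beside a related gene under the same scaling. The gap between the sodium pump subunits Atp1b2 and Atp1b1 was 3.57 (2.57 in C2 and 3.76 to 4.19 in the others). Atp1b1 itself stood at -0.12, and lost its call without C3, without C4 or without C5. Slc1a2 exceeded the neuronal glutamate transporter Slc1a1 by 4.16, and Kcnj10 exceeded the neuronal rectifier Kcnj4 by 4.72. Aldolase C (Aldoc) had a ratio of 2.50 and aldolase A (Aldoa) 0.59. Ndrg2 and Ndrg4, members of a family of differentiation-linked proteins, had 2.57 and -0.44. The tubulins Tubb2b and Tubb3 had 2.95 and 0.62. Both glycogen phosphorylases rose to a like extent, Pygm at 2.56 and Pygb at 2.55, with a gap per mouse of -0.18 to 0.22. The proteolipid Gpm6a had a lower ratio than its relative Gpm6b, by 0.88 on the log2 scale. Its own ratio of 0.20 turned to -0.02 with upper quartile scaling and -0.11 with total reads. The other pairs had gaps of 0.52 (Ldhb over Ldha) to 3.67 (Rpl22 over Rpl22l1). These contrasts are of ratios, not of levels, because CPM are not corrected for gene length.

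Of 32 transcription factors known from astrocytes, 31 were higher and Hes5 was lower, a call that was lost without the mouse as a block (adjusted p = 0.299). Rfx4, a factor of cilia and neural tube patterning, had a ratio of 2.98, with 21.6 to 31.1 CPM in input and 184 to 216 CPM in IP. Among 33 signalling receptors 24 were higher, 7 lower and 2 did not pass, with a median of 1.09. The growth factor receptors Fgfr3 and Fgfr2 had 2.83 and 2.78, the endothelin receptor Ednrb 2.73 and the sphingosine-1-phosphate receptor S1pr1 2.69. Among the receptors lower in IP were P2ry14, which binds UDP-sugars, at -2.53, and the cannabinoid receptor Cnr1, at -1.37. Of 30 genes for synapse-organizing and matrix factors, 27 were higher and 3 lower, with a median of 2.03. Chrdl1, a secreted factor that promotes synapse maturation, had 2.89, and the neuroligin Nlgn1 -0.95.

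Genes of lipid and fuel metabolism were also carried in the IP. All 22 genes of sterol synthesis were higher, with a median log2 ratio of 1.86, and 12 of 15 genes of lipoproteins and sterol export, with a median of 1.83. Clusterin (Clu) went from 467 to 555 CPM to 3428 to 3810 CPM, a ratio of 2.77. The cholesterol exporter Abca1 had 2.70 and the receptor Lrp4 2.86, while lipoprotein lipase (Lpl) was lower at -1.23. Among 25 genes for glycogen, glucose and lactate, 22 were higher, 2 lower and 1 did not pass. Pdk4, a kinase that holds back pyruvate oxidation, had 2.72, and Ppp1r3g, a glycogen-targeting subunit of protein phosphatase 1, 2.67. Both lower genes are carriers known from neurons: the glucose transporter Slc2a3 at -0.47 and the monocarboxylate carrier Slc16a7 at -0.77, against 1.55 for Slc2a1 and 1.43 for Slc16a1. Of 24 genes for fatty acid oxidation and amino acid catabolism, 22 were higher, among them glycine decarboxylase (Gldc) at 2.90, the carnitine transferase Cpt1a at 2.76, cystathionine beta-synthase (Cbs) at 2.66 and proline dehydrogenase (Prodh) at 2.61. Bckdhb, a subunit of the branched-chain dehydrogenase, was the lower one, at -0.57, and the count of lower genes was 2 without C5 or with upper quartile scaling and 3 with total reads.

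**Figure D3:**
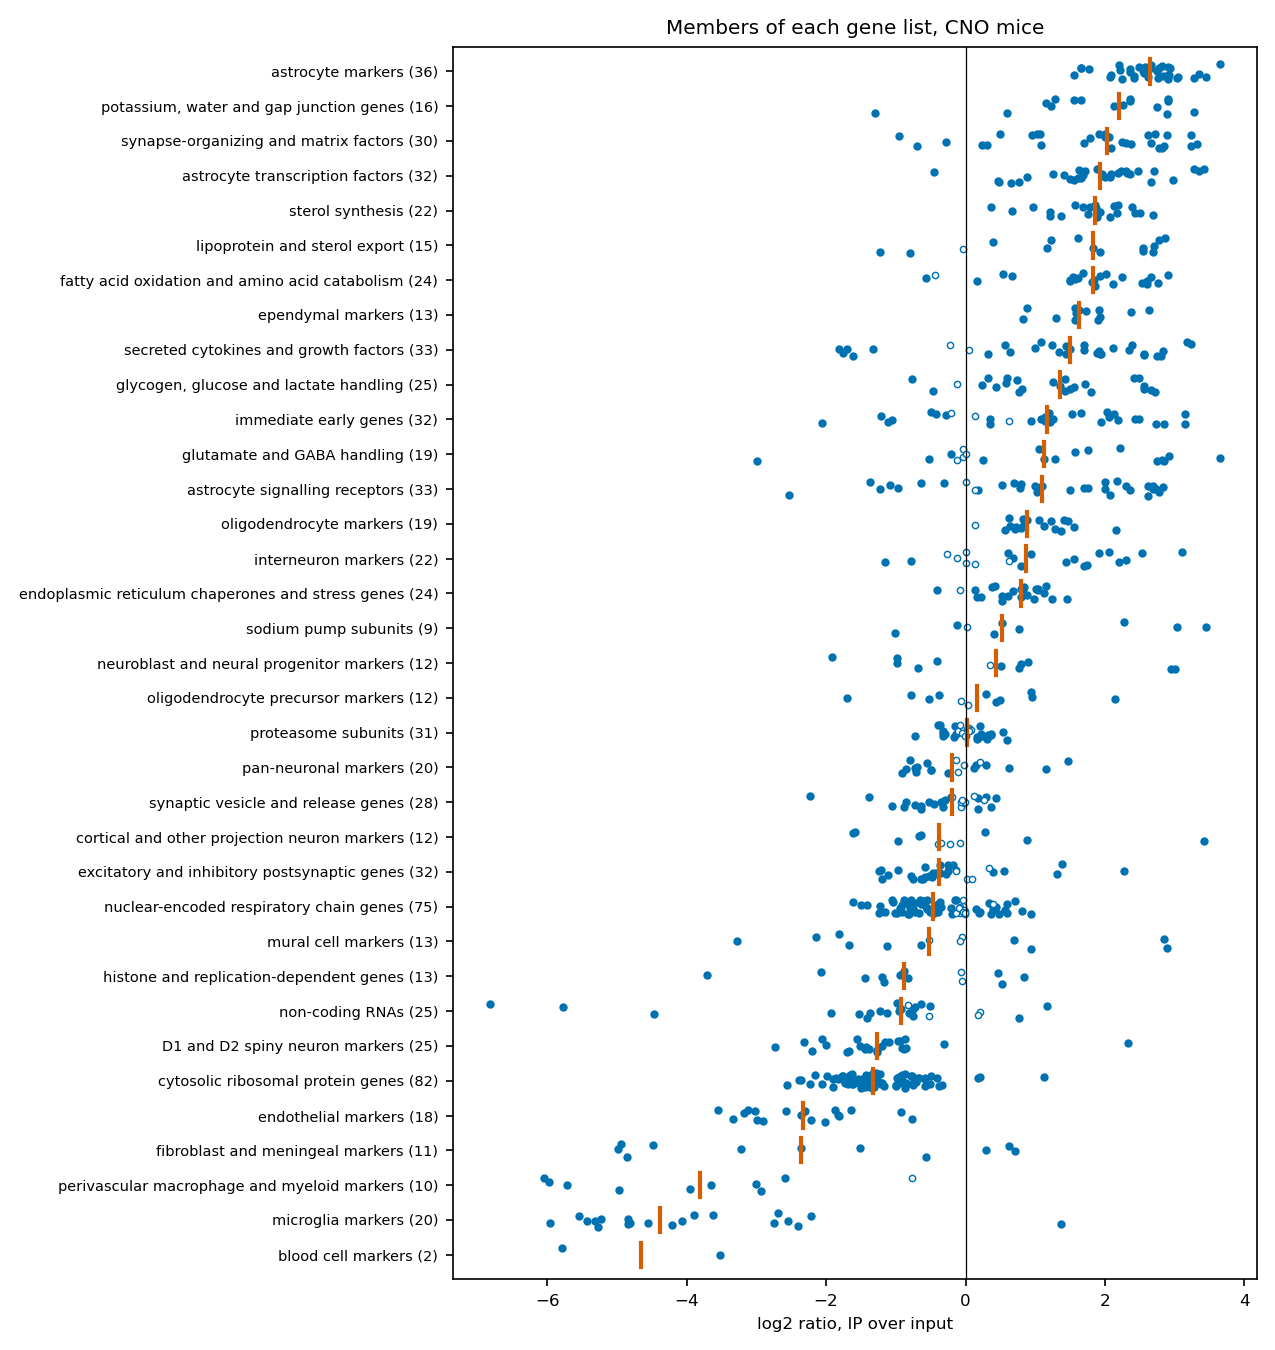
Log2 ratio of IP to input in CNO mice for the members of 35 gene lists, ordered by their median (vertical bars). Filled points passed the test at an adjusted p under 0.05 and open points did not. The astrocyte markers have the highest median, 2.64, and the lists of microglia and blood cells the lowest, -4.39 and -4.65.

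Of the 12 lowest ratios among genes of at least 10 CPM, 7 belonged to the microglia list, and the others were Rmrp, Snora74a, Lyz2, Igj and Ccl12. Of 20 microglia markers 19 were lower, with a median log2 ratio of -4.39, and their summed level was 1381 to 1972 CPM in the inputs and 134 to 159 CPM in the IPs. C1qa, a chain of complement C1q, stood at 143, 235, 232 and 220 CPM in input and at 3.60, 5.36, 4.80 and 5.29 CPM in IP, a ratio of -5.43 (SE 0.061, adjusted p = 2.41e-12). The other C1q chains C1qb and C1qc had -5.23 and -5.27. The protease Ctss had -5.96, the adaptor Tyrobp -5.55, the receptor Gpr34 -5.31 and Selplg, the P-selectin ligand, -4.85. C1qa was lower in C2 than in the other mice in both libraries of the pair. Sall1, a zinc finger factor of microglia and of neural progenitors, was the one marker higher in IP, at 1.37, with 12.1 to 21.5 CPM in input and 36.7 to 43.1 CPM in IP.

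Myeloid, blood and vascular genes were lower as well. Of 10 markers of perivascular macrophages and myeloid cells, 9 were lower (5 without C4), with a median of -3.80, led by lysozyme (Lyz2) at -6.04 and the surface protein Ly6c2 at -5.72. Igj, the joining chain of antibodies, had -5.78 and Alas2, the heme enzyme of red cells, -3.52. They are the 2 measured blood cell markers. Without C2, C3 or C5, Alas2 fell below the read filter and was not tested, so only Igj was called. The filter asks for 4 libraries in each fit, so a gene scarce in the IPs can go untested when a mouse is left out. Counts with a mouse left out can fall for that reason. The chemokine Ccl12 had -4.90. All 18 endothelial markers were lower, with a median of -2.33, and their sum fell from 232 to 274 CPM in input to 60.2 to 73.2 CPM in IP. Claudin 5 (Cldn5) had at most 22.9 CPM in input and 1.39 to 1.65 CPM in IP, a ratio of -3.55, and Pecam1 had -3.34. Of 11 fibroblast and meningeal markers 8 were lower, such as decorin (Dcn) at -4.93, and 5 when any 1 mouse was left out. The mural cell markers split, with 6 lower, 4 higher and 3 not past the test. The pericyte genes Higd1b and Kcnj8 had -3.28 and -2.15. Notch3 was higher at 2.89 (3.13 without C2), the smooth muscle gene Cnn1 at 2.85 and the receptor Pdgfrb at 0.70. Cnn1 had 5.39 to 9.16 CPM in the CNO IPs, but means of 0.19 CPM in vehicle IP and 0.24 CPM in vehicle input. It was too scarce to be tested in vehicle mice, and its difference between the injections did not pass the interaction test (adjusted p = 0.191).

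Among 25 non-coding RNAs tested, 19 were lower, 2 higher and 4 did not pass. Rmrp, the RNA of RNase MRP in the nucleolus, had the lowest ratio of all genes of at least 10 CPM. Its level was 2065, 2817, 2455 and 1941 CPM in input and 24.3, 20.3, 22.02 and 15.4 CPM in IP, a ratio of -6.83 (SE 0.10). Rpph1, the RNA of RNase P, fell from 4826 to 6516 CPM to 175 to 313 CPM, a ratio of -4.47. The small nucleolar RNA Snora74a, from outside that list, had -5.85. The telomerase RNA Terc held 360 reads over the 4 inputs and 12 over the 4 IPs. The nuclear long RNA Rian, which hosts small nucleolar RNAs, had -1.93. Higher in IP were Pantr1, at 0.76, and Trp53cor1, at 1.17 but only 1.59 to 2.41 CPM in IP, and the count of higher members was 4 without C2.

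Neuronal genes fell on both sides of 0. Of 25 markers of D1 and D2 spiny neurons 24 were lower, 17 of them over 2-fold, with a median log2 ratio of -1.27, and their sum fell from 13105 to 18819 CPM in input to 6315 to 8335 CPM in IP. Arpp21, a phosphoprotein of spiny neurons, stood at 1169, 1430, 1639 and 1252 CPM in input and at 289, 293, 331 and 271 CPM in IP, a ratio of -2.20. The substance P precursor Tac1 had -2.32 and Ido1 -2.73. These ratios are smaller in size than those of microglia, and 1 gene went the other way. That gene was Chrm4, the muscarinic M4 receptor. It stood at 243, 236, 288 and 253 CPM in input and at 1294, 1228, 1167 and 1417 CPM in IP, a ratio of 2.32 (SE 0.075, adjusted p = 1.39e-09), without overlap of the groups. The gene lies on chromosome 2, 91927249 to 91928688 (GRCm38), and the ratio was 2.167 in vehicle mice (difference 0.16, adjusted p = 0.484). In RefSeq its model overlaps the end of Mdk, the growth factor midkine, which stood at 31.0 to 36.7 CPM in the IPs (Mdk was named after its values were seen). The overlap spans 31 bases, and the part of shared reads was not tested.

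Interneuron genes were the neuronal group with the most members higher in IP, 14 of 22, with 2 lower and 6 not past the test. Nos1, the neuronal nitric oxide synthase, reached 3.11 (3.29 without C2), with 36.2 to 56.7 CPM in input and 336 to 366 CPM in IP. The genes of acetylcholine neurons moved together. The synthetic enzyme Chat had 2.53, its vesicular transporter Slc18a3 2.30 and the choline transporter Slc5a7 2.21. Chat and Slc18a3 overlap in the genome, so reads may be shared between them, while Slc5a7 is a separate gene. Cholecystokinin (Cck) and parvalbumin (Pvalb) were lower, at -1.16 and -0.78. Cck ran from 15.2 to 108 CPM among the inputs, and its call was lost without the mouse as a block (adjusted p = 0.206). The lower count was 4 without C2 and 5 under both other scalings. The part of interneurons in the astrocyte ratios was not tested.

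Of 20 genes expressed by neurons of all kinds, 10 were lower, 6 higher and 4 did not pass, with a median of -0.19. The higher count was 3 under both other scalings. The splicing factor Rbfox3 had -0.91 and the release protein Snap25 -0.85. Secretogranin Scg2 was higher at 1.47, with 419 to 488 CPM in input and 1045 to 1356 CPM in IP, and the neurofilament Nefh at 1.15. Among 28 genes of synaptic vesicles and release, 14 were lower, 5 higher and 9 did not pass. Lower calls rose to 23 with total reads, and higher calls fell to 1 under either other scaling and to 2 without C4 or without C5. Synaptoporin (Synpr) had -2.23 and the vesicle protein Sv2a 0.44. Of 32 postsynaptic genes 22 were lower and 5 higher (3 with total reads). The scaffolds Dlgap3 and Dlg4 had -1.24 and -1.21. The higher ones included Homer3, at 2.28, and the GABA receptor subunits Gabrb1 and Gabrg1, at 1.38 and 1.31. Of 12 markers of cortical neurons 5 were lower (8 under both other scalings) and 3 higher, Rorb among them.

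Oligodendrocyte and ependymal markers were on the higher side, with medians below that of the astrocyte markers. Of 19 oligodendrocyte markers 18 were higher and none lower, with a median log2 ratio of 0.88. The median was 0.65 in C2, 0.90 in C3, 0.98 in C4 and 1.39 in C5, and the sum went from 6315 to 8413 CPM in input to 11142 to 15581 CPM in IP. Transferrin (Trf) stood at 589 to 806 CPM in input and at 1524 to 2494 CPM in IP, a ratio of 1.56, the myelin gene Mag had 1.47, the lineage factor Sox10 1.42 and the myelin regulator Myrf 2.15. In vehicle mice 13 of the 19 were higher, with a median of 0.82. All 13 ependymal markers were higher, with a median of 1.63, led by Foxj1, the master factor of motile cilia, at 2.63, although their summed level was only 40.1 to 52.9 CPM in input. Oligodendrocyte precursor markers were split, with 6 of 12 higher, 4 lower and a median of 0.16. Markers of neuroblasts and neural progenitors were split too, with 6 of 12 higher, 5 lower and 1 not past the test, and a median of 0.43. The receptor Egfr had 2.998, while Top2a, a topoisomerase of dividing cells, and Dcx, a gene of migrating neuroblasts, had -1.91 and -0.68. The part of these cells in the astrocyte ratios was not tested.

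Of 82 cytosolic ribosomal protein genes 79 were lower, 52 of them over 2-fold, with a median log2 ratio of -1.33, and their sum went from 5755 to 7434 CPM in input to 2866 to 3021 CPM in IP. Rplp1, a protein of the ribosomal stalk, stood at 397, 484, 463 and 382 CPM in input and at 87.5, 84.5, 81.4 and 82.3 CPM in IP, a ratio of -2.36. Rpl22l1, Rps21 and Rps20 had -2.55, -2.39 and -2.23. The exception over 2-fold was Rpl22, at 1.12, with 122, 161, 169 and 150 CPM in input and 304, 299.6, 351 and 347 CPM in IP. Rps4l and Rps27l had ratios of 0.20 and 0.18, which turned to -0.02 and -0.05 with upper quartile scaling and to -0.11 and -0.14 with total reads, and their calls were lost without C4, that of Rps4l also without C2. Ribosomal protein genes have many processed pseudogenes, so their read counts are uncertain. Of 75 nuclear-encoded respiratory chain genes 48 were lower, 15 higher (8 with total reads) and 12 did not pass, and their sum overlapped between input (10214 to 11698 CPM) and IP (10096 to 10716 CPM). The lower genes included Cox7c and Atp5e, at -1.49 and -1.41, and the higher ones Sdha, Sdhc and Uqcrc1, at 0.94, 0.81 and 0.70. Proteasome subunits stayed near 0, with a median of 0.02, 12 higher and 10 lower, a split of 4 and 19 with upper quartile scaling and of 2 and 23 with total reads. Of 13 histone genes 8 were lower, such as H2afz at -2.07 and Hist1h4h at -1.20, and 3 higher, such as Hist1h2bc at 0.52.

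The same ratio was then compared between the injections, which asks where the astrocyte share of a message in CNO mice differed from that in vehicle mice. In vehicle mice 6343 of 15872 genes were higher in IP (40.0%) and 6223 lower (39.2%). The 2 ratios share no library, and their difference equals the CNO effect in IP minus that in input. Of 15655 genes tested in both, 5824 were higher in both and 5319 lower in both, so the direction was mostly the same. By the test of the difference itself, over all 16 libraries, the ratio was higher in CNO mice for 1018 of 16256 genes (6.26%) and lower for 222 (1.37%). With upper quartile scaling the counts were 780 and 477, so that 62.1% of calls were on the higher side in place of 82.1%. The lower count also fell to 93 without the mouse as a block and to 98 without V2, 125 without C5, 131 without C3 and 139 without C4. Of the 36 astrocyte markers 1 rose and 3 fell in ratio, to be read against 6.26% and 1.37% of all genes, with a median difference of -0.08 against 0.02 over all genes. A call of opposite direction was made for 128 genes higher in IP of CNO mice and lower in that of vehicle mice, and for 10 the other way round, of which 137 passed the test of the difference.

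**Figure D4:**
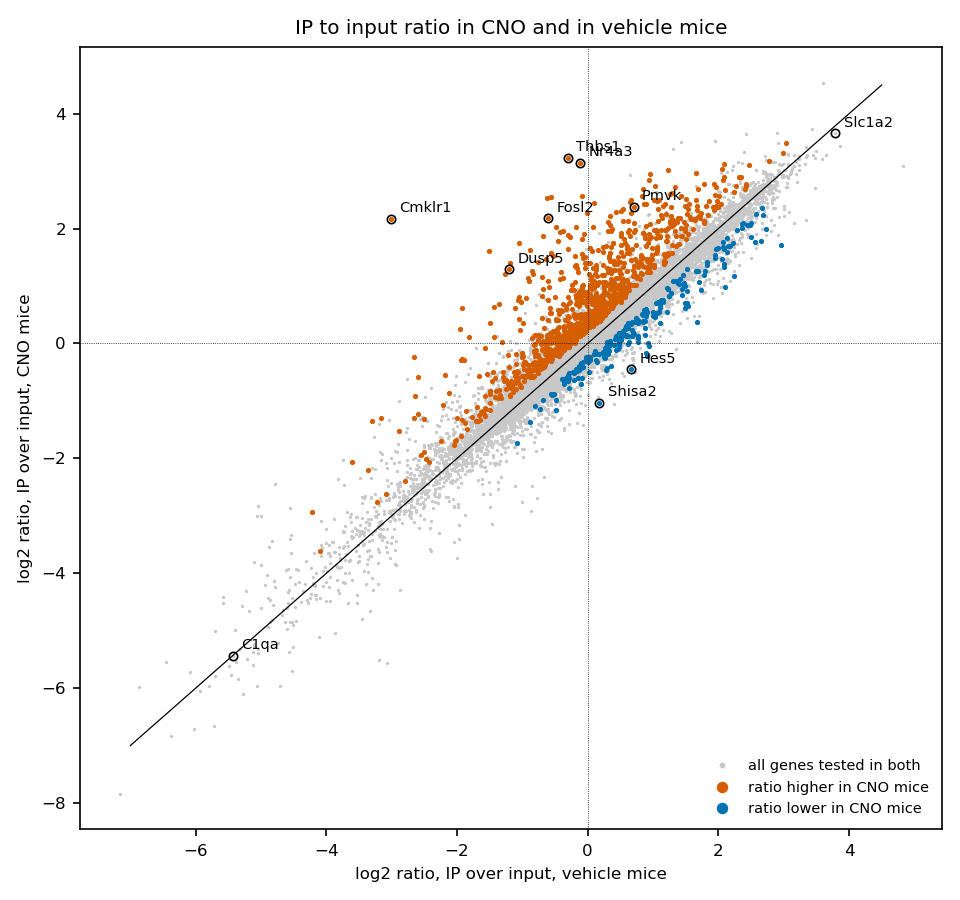
Log2 ratio of IP to input in CNO mice (vertical) against that in vehicle mice (horizontal) for genes tested in both, with the line of equal ratios. Genes whose ratio was higher in CNO mice by the test of the difference lie above the line and those lower below it. Cmklr1 and Thbs1 lie farthest above among the genes named here, while Slc1a2 and C1qa lie near the line.

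Of the 10 genes with the largest gain in ratio, 9 lay within the range of the astrocyte markers (1.55 to 3.66) in CNO mice and none did in vehicle mice. The genes were chosen for this difference, so these counts are a description. Cmklr1, the receptor of chemerin, was 2.18 in CNO mice and -3.01 in vehicle mice. It stood at 7.72, 9.03, 7.96 and 9.39 CPM in the CNO inputs and at 36.8, 39.5, 35.3 and 42.4 CPM in the CNO IPs. The vehicle libraries had 5.12, 3.78, 4.99 and 8.59 CPM in input but 0.789, 0.509, 0.620 and 0.773 CPM in IP. A message at under 1 CPM in each vehicle IP was thus above the input in the CNO IP of all 4 mice. Its difference of 5.18 (adjusted p = 2.59e-09) was the largest by the naming rule.

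Thbs1 had 7.08, 4.83, 7.16 and 7.24 CPM in the CNO inputs and 66.0, 49.1, 57.2 and 76.3 CPM in the CNO IPs, and 1.38 to 3.12 CPM in vehicle input and 1.18 to 2.20 CPM in vehicle IP. Its ratio was 3.24 in CNO mice and -0.30, not past the test, in vehicle mice, a difference of 3.54 (adjusted p = 0.000216). Nr4a3, an orphan nuclear receptor induced quickly by stimulation, had 12.1, 8.84, 12.7 and 11.1 CPM in the CNO inputs and 98.0, 91.0, 98.5 and 105 CPM in the CNO IPs. Its vehicle values were 3.51 to 4.75 CPM in input and 3.27 to 5.08 CPM in IP, and the difference was 3.26 (adjusted p = 1.26e-08). In both genes the input was higher in CNO mice as well. Their ratios in the 2 injection groups did not overlap, which the naming rule required of them.

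The other genes of this rank were secreted factors, receptors, enzymes and transcription factors. Il11, a cytokine of the interleukin 6 family, reached 15.01 CPM in the CNO inputs, 65.8 to 80.5 CPM in the CNO IPs and at most 0.497 CPM in any vehicle library. Its difference was 2.65 (adjusted p = 6.37e-05). The AP-1 factor Fosl2 went from -0.61 in vehicle mice to 2.19. Sphk1, which makes sphingosine-1-phosphate, went from -0.62 to 2.54 and varied from -2.30 to 0.57 among vehicle mice. The receptor Gpr3 went from -0.88 to 1.63, the zinc finger factor Klf4 from -0.48 to 2.03 and the phosphatase Dusp5, which acts on ERK, from -1.20 to 1.298. Cmklr1, Fosl2, Gpr3, Klf4 and Dusp5 passed the test with opposite signs in the 2 injections.

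Promoter sequence was looked at for the same 10 genes, since they moved together. RefSeq windows of 250 bases before to 50 bases after the start were on hand for 8 of them (GRCm38.p6). The AP-1 element, TGACTCA or its reverse complement TGAGTCA, was present in 3 of the 8, in Sphk1, Il11 and Gpr3, and in 4.8% of 12416 measured genes with a window. The cAMP element TGACGTCA was present in none of the 8 and in 3.29% of those genes. A match is a description of letters, not of binding. The sites of Il11 and Sphk1 are shown as examples of the element in a promoter of a gene that gained ratio, with the 7 matching letters in capitals. That of Il11 (chr7:4778211-4778261, minus strand) lies 98 bases before the start and that of Sphk1 (chr11:116531765-116531815, plus strand) 50 bases before it.
Il11: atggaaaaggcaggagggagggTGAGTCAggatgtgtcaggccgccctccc
Sphk1: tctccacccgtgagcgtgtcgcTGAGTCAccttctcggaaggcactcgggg

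Immediate early genes, which cells switch on within minutes of a stimulus, had a median log2 ratio of 1.17 in CNO mice and -0.43 in vehicle mice. In CNO mice 22 of 32 were higher in IP, 7 lower and 3 did not pass, and the ratio was higher than in vehicle mice for 24 of the 32 and lower for none, against 6.26% of all genes on the higher side. Fosl1 had a ratio of 3.15 in CNO mice, Maff 2.85 and Cyr61 2.73, against 2.84, 0.94 and 1.96 in vehicle mice. The difference passed the interaction test for Maff and Cyr61 but not for Fosl1 (adjusted p = 0.584). Fosl1 held only 23 reads over the vehicle inputs. Fos, named after its values were seen, stood at 47.6, 49.9, 64.1 and 60.7 CPM in the CNO inputs and at 340, 238, 265 and 359 CPM in the CNO IPs, a ratio of 2.43 against 0.87 in vehicle mice (difference 1.56, adjusted p = 0.00492). Several genes of this list known from active neurons stayed on the input side. Egr3 stood at 88.2 to 116 CPM in CNO input and 38.4 to 48.8 CPM in CNO IP, a ratio of -1.21 against -1.29 in vehicle mice. Npas4, a factor of neurons, had -1.11 and Egr4 -1.05, and their differences from vehicle mice did not pass (adjusted p = 0.239 and 0.376, and 0.776 for Egr3). The vascular factor Klf2 had the lowest ratio of the list, -2.05.

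**Figure D5:**
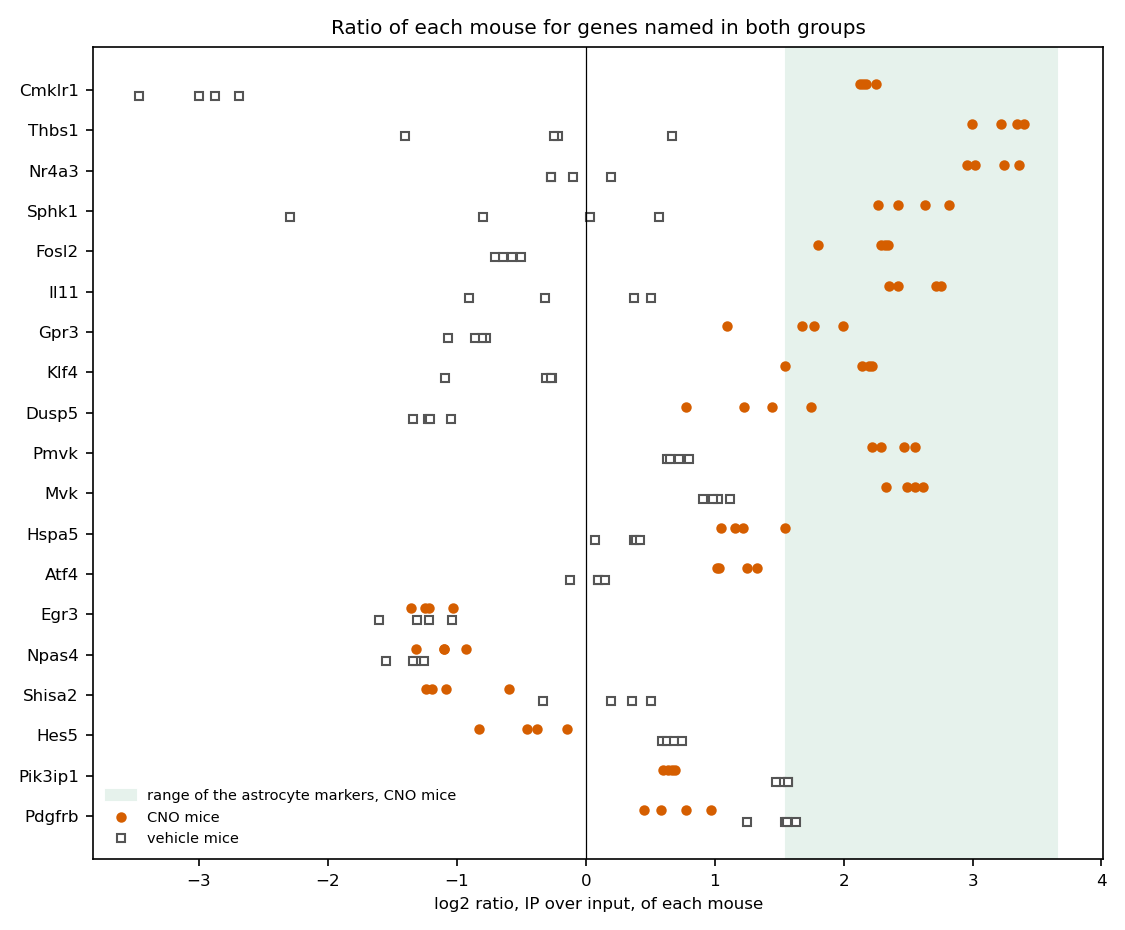
Log2 ratio of IP to input of each mouse, CNO mice as filled circles and vehicle mice as open squares, for 19 genes, with the range of the astrocyte markers in CNO mice shaded. The 2 groups do not overlap for the genes from Cmklr1 to Atf4 or from Shisa2 to Pdgfrb, and they overlap or adjoin for Egr3 and Npas4. The genes from Cmklr1 to Dusp5 and from Shisa2 to Pdgfrb were named by a rule that required this lack of overlap.

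Secreted cytokines and growth factors were mostly carried in the IP of CNO mice, and some rose in ratio against vehicle mice. Of 33 tested in CNO mice 26 were higher, 5 lower and 2 did not pass, with a median of 1.503. In vehicle mice 29 were tested, so their median of 0.47 covers fewer members. The median difference between the injections was 0.365. Of 33 members tested for the difference 9 rose and none fell, against 6.26% and 1.37% of all genes. These 33 include members that were not tested in vehicle mice alone. Such members passed the read filter only with the CNO libraries counted in, so the counts are a description. The pentraxin Ptx3 had 3.17, Fgf2 2.75 and the protease inhibitor Timp1 2.57 in CNO mice, against 2.81, 2.48 and 2.02 in vehicle mice. None of these differences passed the interaction test (adjusted p = 0.371, 0.521 and 0.274). Each of the 3 genes overlaps another gene (Veph1, Nudt6 and Syn1), so reads may be shared. The lower members were Cxcl12, at -1.81, Pdgfb, at -1.76, Bmp2, at -1.61, and 2 more.

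Sterol synthesis gained ratio as a group: 17 of its 22 genes were higher in CNO than in vehicle mice and none lower, with list medians of 1.86 and 1.11. Pmvk, phosphomevalonate kinase, stood at 78.5, 91.5, 82.1 and 84.9 CPM in CNO input and at 461, 507, 382 and 415 CPM in CNO IP, and at 25.0 to 26.2 CPM and 39.6 to 43.5 CPM in the vehicle libraries. Its ratio was 2.38 against 0.70 (difference 1.68, adjusted p = 4.88e-08). Mevalonate kinase (Mvk) had 2.50 against 1.01 and the decarboxylase Mvd 2.43 against 1.18. Of 24 genes for chaperones and stress of the endoplasmic reticulum, 22 were higher in the IP of CNO mice and 11 gained ratio, with medians of 0.80 and 0.22. Their 1 lower member was Atf6, at -0.41, and lower members numbered 2 and 4 under the other scalings. The chaperone Hspa5 went from 0.31 in vehicle mice to 1.24 and the stress factor Atf4 from 0.06 to 1.16, while the lectin chaperone Canx stood at 1.12 in both groups. The glucose transporter Slc2a1 also gained, from 0.82 to 1.55, and Fgfr2 and Rfx4, astrocyte genes in both groups, gained 0.99 and 1.32. Of the 82 ribosomal protein genes 16 gained ratio and none lost it. The counts in this paragraph are to be read against 6.26% of all genes that gained ratio and 1.37% that lost it.

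Fewer genes lost ratio. Hes5, an effector of Notch, stood at 7.64, 7.43, 4.73 and 3.89 CPM in CNO input and at 6.91, 5.73, 3.45 and 2.19 CPM in CNO IP, against 5.65 to 14.03 CPM and 9.51 to 21.7 CPM in the vehicle libraries. Its ratio was -0.45 in CNO mice and 0.67 in vehicle mice, a difference of -1.12 (adjusted p = 0.000227, and 0.365 without the mouse as a block). Shisa2, which holds back Wnt and FGF receptors, was -1.03 against 0.18 (difference -1.21). Pik3ip1, an inhibitor of PI3 kinase, was 0.65 against 1.53, and Nim1k, a kinase of the AMPK family, 0.61 against 1.49. The guidance factor Rgma, the zinc finger factor Sall3, Pdgfrb, the matrix protein Frem2 and the stress-induced Sesn1 had differences of -0.80, -0.76, -0.80, -0.75 and -0.74. Tnfaip8 had a difference of -0.74 (adjusted p = 0.0267), which missed the threshold without C3, C4, C5, V2 or V4 (adjusted p = 0.0567 to 0.0883). The rule that named the 10 genes in this paragraph required that their per-mouse ratios not overlap between the injections.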

How the data were processed

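RNA of the striatum was sequenced as paired-end libraries prepared from mRNA-enriched RNA (Nugen Ovation RNA-Seq System V2), per the labels' protocols. Build mm10 and the tools STAR, HTSeq, limma and bcl2fastq 2.17 are named, per the submitters' processing notes. The sources used here do not give the annotation, strand setting or filters. Overlapping genes may therefore share reads. Among named genes this concerns Gpr34 with Cask, Atp1b1 with Nme7, Gpr3 with Cd164l2, Fosl1 with Ccdc85b, Homer3 with Ddx49, Gabrb1 with Gabra4, Prodh with Dgcr6, P2ry14 with Med12l, Rpph1 with Ccnb1ip1, Alas2 with Apex2, Rps4l with Tmtc1, Sox6 and Egfr with antisense genes, and Fgfr2 with neighbours through long transcript models.

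The authors deposited log2 CPM, with a prior count of 0.25 and a normalized library size, per the values themselves. Solving for that size gave whole reads for 100% of the values, within 0.05 read, so the depth of each library is known, and 29 was the fewest reads of any gene over the 16 libraries. A gene with 0 reads carries a value set by the prior count. After 1 duplicate line was dropped, 17097 genes were left, of which 16886 matched GENCODE M21 (GRCm38), 649 through a synonym.

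The deposited log2 values went into limma 3.58.1 (R 4.3.3: lmFit with the mouse as a block, eBayes with trend and robust settings), with Benjamini-Hochberg adjustment over all genes tested and a threshold of 0.05. A gene was tested if it had 15 or more reads in total and reached, in 4 or more libraries, the CPM of 10 reads in the median library. The difference between injections was an interaction term over 16 libraries. The pairing comes from the mouse codes. Deviations of IP and input from their group means correlated at 0.399 to 0.668 within a CNO mouse over 12953 genes, and each IP correlated best with its own input. The fit was tested on simulated data.

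The libraries, the gene lists and the pairs of related genes were chosen with earlier results of these data known. Genes were named by a rule. It took the 3 markers, and the 12 highest and 12 lowest ratios at a mean of at least 10 CPM. It also took up to 4 called members of each list on either side and the genes of each pair. The last parts were the 10 largest differences each way, and the 6 genes of opposite sign with the largest difference. The largest differences were taken only among genes whose per-mouse ratios did not overlap between the injections. Fos and Mdk were named outside the rule. Alternatives were other scalings, filters, prior counts, limma-voom, plain eBayes, no block, and leaving out each mouse. A few genes that the rule names are not reported here.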

Additional observations from a re-analysis of the deposited data

Results flagged for a closer look

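Single mice stood apart from the other 3 CNO mice, by Dixon's test at the 95% level, for 21 of 221 sets of 4 ratios examined (186 named genes and 35 list medians). Chance flags about 1 in 20 such sets. In 10 of the 21 it was C2. The log2 ratio of C2 was 2.29 for Tead1 (3.51 to 3.66 in the other mice), 2.56 for Nos1 (3.27 to 3.31), 1.74 for Slc5a7 (2.33 to 2.39) and 1.70 for Sox6 (2.27 to 2.33). It was 2.61 for Gja1 (2.95 to 3.02), 2.31 for Ndrg2 (2.65 to 2.67) and 1.27 for Rgma (1.90 to 1.95). For neuronal genes it lay nearer to 0, at -0.85 for Homer1 (-1.22 to -1.17) and -0.14 for Ndrg4 (-0.57 to -0.50). For Terc it was -8.18, with 0 reads in the IP of C2, against -5.13 to -4.79.

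C4 stood lower for Tyrobp at -5.98 (-5.43 to -5.37 in the others), Foxj1 at 2.49 (2.66 to 2.70), Ppp1r3g at 2.33 (2.75 to 2.82), Klf2 at -2.61 (-1.90 to -1.84), Fosl2 at 1.80 (2.29 to 2.34) and Klf4 at 1.54 (2.14 to 2.22). The median of the interneuron markers was 1.53 in C4 against 0.74 to 0.87. C5 stood apart for Gpr34 at -6.38 (-5.05 to -4.82), Bckdhb at -0.44 (-0.62 to -0.60) and Gpm6a at 0.055 (0.24 to 0.26). C3 stood higher for Cpt1a at 2.93 (2.68 to 2.72).

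The IP to input ratio differed between CNO and vehicle mice, by the interaction test, for 38 of the named genes. The differences were 5.18 for Cmklr1, 3.54 for Thbs1, 3.26 for Nr4a3, 3.16 for Sphk1, 2.79 for Fosl2 and 2.65 for Il11. They were 2.51 for Gpr3, 2.51 for Klf4 and 2.50 for Dusp5, followed by 1.91 for Maff, 1.56 for Fos and 0.77 for Cyr61. In the sterol genes they were 1.68 for Pmvk, 1.49 for Mvk and 1.25 for Mvd. Atf4 had 1.10 and Hspa5 0.93. Rfx4, Fgfr2, Gjb2, Slc2a1, Flnc and Tnc, all higher in the IP of both groups, had 1.32, 0.99, 0.81, 0.73, 0.46 and 0.33. Scg2 had 0.75, Homer1 0.59 and Rps21 0.41.

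Lower ratios in CNO mice were found for Shisa2 (-1.21), Hes5 (-1.12), Trp53cor1 (-1.08), Pik3ip1 (-0.88), Nim1k (-0.88), Rgma (-0.80), Pdgfrb (-0.80), Sall3 (-0.76), Frem2 (-0.75), Sesn1 (-0.74), Tnfaip8 (-0.74) and Pantr1 (-0.37).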

How the results depend on the processing

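In CNO mice, 8 of the 186 named genes lost or turned their call under at least 1 alternative, and Syt1, not called, passed as lower under both other scalings. Gpm6a, Rps27l and Rps4l turned in direction, to -0.024, -0.048 and -0.022 with upper quartile scaling and to -0.11, -0.14 and -0.11 with total reads. The counts of genes in CNO mice stayed within 1.5 times, except that at least 2-fold lower genes rose from 2112 to 3184 with total reads. Leaving out 1 mouse gave 6254 to 6586 higher and 5157 to 5608 lower genes. Without the replicate block they were 6323 and 5534, and 6 named genes lost their calls: Cck, Hes5, Slc32a1, Atp1b1, Rps4l and Rps27l. Small list counts fell too, such as higher pan-neuronal genes from 6 to 3, lower vesicle genes from 14 to 9 and lower cortical genes from 5 to 1. Of 38 named differences between injections, 7 lost their call under at least 1 alternative and none turned. The count of lower differences was 222. It was 477 with upper quartile scaling, 345 with total reads, 138 without trend and robust settings, 93 with no replicate block, 147 with the replicate block by number, and 98 to 187 with 1 mouse left out. The higher count was 713 to 935 with 1 mouse left out, 680 with no replicate block and 825 with the block by number. The causes of these changes were not tested. Flnc, Tnc, Rps21 and Tnfaip8 missed the threshold for the difference in most leave-outs, and Trp53cor1 without V2. Low counts limit the ratios of the scarcest genes, such as Terc with 12 reads over the CNO IPs.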
